A study of Mus musculus with 6 samples.

Results

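The D-type cyclins Ccnd1, Ccnd2 and Ccnd3, their partner kinases Cdk4 and Cdk6, and the CDK inhibitors Cdkn1a, Cdkn1b, Cdkn1c, Cdkn2b and Cdkn2c were followed over 6 expression arrays of 3T3-L1 adipocytes. These 10 genes are the members of a list of gene symbols, and each was taken from the probe sets annotated to that symbol alone, out of 18194 genes with such a probe set. For each gene the probe set with the greatest mean level on these arrays was used, and any others served as a check. The members had 26 probe sets in all, and 3 members, Cdkn1c, Cdkn2b and Cdkn2c, had only 1. Of the 10 genes, 9 were detected, meaning that at least 1 array exceeded the median of the whole table, a log2 level of 6.55. Cdkn1c lay under that level on every array.

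3T3-L1 is a mouse fibroblast-like line that matures into fat cells in culture after growth arrest and hormonal induction. All 6 groups were cells of this line in medium with insulin, treated for 5 days after induction, and each group was 1 array of RNA pooled from 4 replicate experiments. In the first experiment the cells received ethanol at 0.1% by volume as vehicle, ritonavir, an HIV protease inhibitor, at 20 µM, or tenofovir, a nucleotide reverse transcriptase inhibitor, at 1 µM. In the second experiment ritonavir at 20 µM was given to all cells, along with DMSO as vehicle (0.1% by volume), the conjugated linoleic acid (CLA) c9,t11 at 100 µM, or its isomer t10,c12 at 100 µM. Those fatty acids differ in the position and geometry of their double bonds. Whether the CLA arrays also carried DMSO, and whether ethanol was present on the drug arrays, is not known here. With 1 pooled array per group there is no spread between replicates, so every difference below is a difference between single arrays, without a test and without an error.

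D-type cyclins join early growth signals to the cell cycle: they bind CDK4 or CDK6, and the complexes phosphorylate the retinoblastoma (RB) proteins, which releases E2F factors to transcribe genes of DNA replication. INK4 inhibitors such as the products of Cdkn2b and Cdkn2c bind CDK4 and CDK6 themselves, whereas CIP/KIP inhibitors such as those of Cdkn1a, Cdkn1b and Cdkn1c bind cyclin-CDK complexes, above all those of CDK2. In preadipocytes, hormonal induction sets off rounds of division before exit from the cycle, and in this lineage the product of Cdkn2c is known to increase as the cells mature, while cyclin D3 is known as a coactivator and cyclin D1 as a repressor of PPARγ, the master regulator of fat cells.

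The arrays were alike in overall distribution, with medians between 6.54 and 6.56. The label of adipocytes was checked against 12 marker genes, of which 10 had a probe set of their own and all 10 were detected. Their mean log2 level was 13.54 with ethanol, 13.58 with tenofovir, 9.66 with ritonavir, 12.51 with ritonavir and DMSO, 12.74 with c9,t11-CLA and 11.14 with t10,c12-CLA, so the ritonavir array of the first experiment and the t10,c12-CLA array were the lowest. Of the 10 detected preadipocyte and fibroblast markers, 4 were at least 2-fold higher and 0 lower with ritonavir than with ethanol. Of all genes, 4.56% were higher and 6.39% lower by that fold. With ritonavir and DMSO, 0 of these markers were at least 2-fold higher than with ethanol and 2 were lower, with a median of -0.30. The shares of all genes there were 1.52% and 2.99%. Of other cell types, 3 of 6 macrophage, 1 of 5 endothelial, 3 of 5 muscle and 4 of 5 epithelial markers were detected. The macrophage markers Adgre1, Itgam and Ptprc and the endothelial markers Pecam1, Cdh5, Tek and Vwf were under the detection level. Between ritonavir and ethanol, 1 macrophage marker, Cd68, was at least 2-fold higher, at 1.83, and 2 epithelial markers, Krt18 and Krt19, were lower, at -2.12 and -2.45. With ritonavir both keratins were under the detection level, at 4.84 and 6.07, against 6.96 and 8.51 with ethanol, so these 2 sizes are not exact. The part of these 3 markers in the results below was not tested. Tenofovir and ethanol differed least: their differences over 12386 detected genes ran from -0.74 to 0.84, and 95% of them were within 0.26 of 0 in either direction, a width used below as a scale for single-array differences.

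Of the members, Ccnd1 and Cdkn2c differed most between arrays and ran in opposite directions. With ritonavir, Ccnd1 was 4.14-fold higher and Cdkn2c 7.65-fold lower than with ethanol, and the INK4 gene Cdkn2b was 2.57-fold higher. In the second experiment, on other arrays, t10,c12-CLA stood apart from DMSO at the same genes save Cdkn2b: Ccnd1 was 2.64-fold higher and Cdkn2c 2.15-fold lower. With c9,t11-CLA neither reached 2-fold from DMSO, and Ccnd2 spanned 0.27 log2 units over all 6 arrays. The plot of levels by array shows each gene against its own mean.

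**Figure D1:**
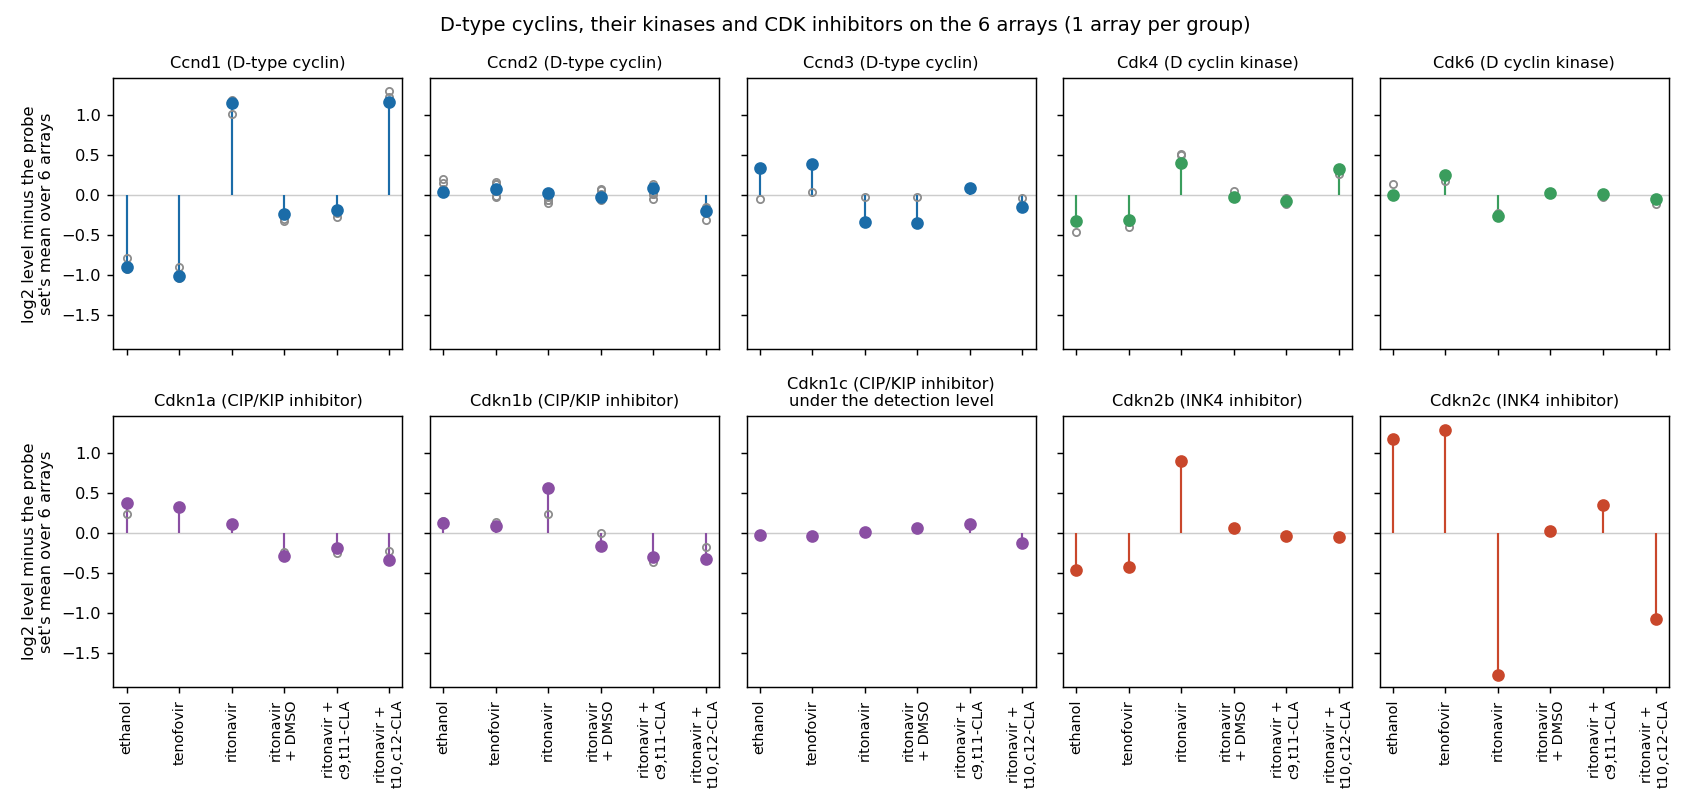
Log2 level of each gene minus the probe set's own mean over the 6 arrays, by array (1 array per group); filled points with stems are the probe set with the highest mean, open grey points are the gene's other detected probe sets. Ccnd1 is high on the ritonavir (10.96) and t10,c12-CLA (10.97) arrays, where Cdkn2c is low (9.56 and 10.25), and Cdkn2b is highest on the ritonavir array (11.95).

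Among the D-type cyclins, Ccnd1, the cyclin most tied to growth factor signals, had a log2 level of 8.91 with ethanol, 8.80 with tenofovir, 10.96 with ritonavir, 9.57 with ritonavir and DMSO, 9.62 with c9,t11-CLA and 10.97 with t10,c12-CLA. The ritonavir and t10,c12-CLA arrays were high, the other 2 arrays with ritonavir lay between, and the arrays without ritonavir were low. The log2 difference was 2.05 between ritonavir and ethanol, the 69th highest of 12386 detected genes, and 0.66 between ritonavir with DMSO and ethanol. Between t10,c12-CLA and DMSO it was 1.40, the 33rd highest, and between c9,t11-CLA and DMSO it was 0.05. Its other 2 probe sets gave the same order of arrays in outline, with log2 differences of 1.93 and 1.96 for ritonavir minus ethanol and of 1.60 and 1.55 for t10,c12-CLA minus DMSO.

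Ccnd2, a D-type cyclin with 7 probe sets, was nearly flat. Its log2 level was 13.60 with ethanol, 13.64 with tenofovir, 13.59 with ritonavir, 13.54 with ritonavir and DMSO, 13.65 with c9,t11-CLA and 13.37 with t10,c12-CLA. The t10,c12-CLA array was the lowest, by 0.17 against DMSO, which is within the scale given by tenofovir and ethanol, and by 0.27 against c9,t11-CLA, just past it.

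Ccnd3, the D-type cyclin linked with mature fat cells, was lower wherever ritonavir was present. Its log2 level was 11.29 with ethanol and 11.34 with tenofovir, against 10.62 with ritonavir, 10.61 with ritonavir and DMSO, 11.04 with c9,t11-CLA and 10.80 with t10,c12-CLA. Both ritonavir arrays without CLA had nearly the same level, 0.68 and 0.69 below ethanol, unlike those of Ccnd1 and Cdkn2c. The c9,t11-CLA array lay 0.44 above DMSO, the 93rd highest difference in a comparison in which few genes differed, and the t10,c12-CLA array 0.19 above it. These values rest on 1 of the gene's 3 probe sets, the one designed on a RefSeq transcript. A second, dimmer probe set differed by 0.02 between ritonavir and ethanol and by 0.11 between c9,t11-CLA and DMSO, and the third was under the detection level.

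Of the kinases, Cdk4 followed the arrays as Ccnd1 did, over a smaller span. Its log2 level was 11.12 with ethanol, 11.13 with tenofovir, 11.85 with ritonavir, 11.42 with ritonavir and DMSO, 11.37 with c9,t11-CLA and 11.77 with t10,c12-CLA. The ritonavir array was 1.66-fold above ethanol, a log2 difference of 0.73, and the t10,c12-CLA array was 0.35 above DMSO. The other 2 probe sets gave 0.98 and 0.80 for the first difference and 0.27 each for the second. Cdk6, the second kinase partner, spanned less than Cdk4 and had another order of arrays: its log2 level was 10.62 with ethanol, 10.87 with tenofovir, 10.36 with ritonavir, 10.65 with ritonavir and DMSO, 10.64 with c9,t11-CLA and 10.58 with t10,c12-CLA. The arrays with and without ritonavir overlapped for Cdk6, with differences from ethanol of -0.26 for ritonavir and 0.03 for ritonavir with DMSO.

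The stretch upstream of Cdk4 is shown because Cdk4 is the kinase whose arrays with ritonavir all lay above those without, and because the window is rich in E-boxes, the CACGTG motif read by MYC and related factors. RefSeq windows of 250 bases before the start were found for 7 of the 10 members, 10 windows in all, and motifs were searched on both strands. The Cdk4 window (GRCm38.p6, chr10:127063285-127063534, + strand), printed 5′ to 3′ with CACGTG in capitals, holds the motif 4 times, whereas 6.02% of 32851 windows of all genes hold it at least once and 0.0213% at least 4 times.
Cdk4: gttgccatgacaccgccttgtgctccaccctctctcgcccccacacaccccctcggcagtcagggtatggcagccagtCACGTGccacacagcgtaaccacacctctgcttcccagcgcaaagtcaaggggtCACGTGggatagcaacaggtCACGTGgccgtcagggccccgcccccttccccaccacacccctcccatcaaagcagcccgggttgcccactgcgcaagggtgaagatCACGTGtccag
The window of Cdk6, whose arrays with and without ritonavir overlapped, also holds CACGTG, 1 time. The motif in capitals was picked for each printed gene from the motifs searched. A match describes these letters and not a bound site. Myc itself, the best known E-box factor and a growth factor early response gene, had a difference of 0.13 between ritonavir and ethanol. It was 0.43 between t10,c12-CLA and DMSO, and -0.52 between ritonavir with DMSO and ethanol, where Cdk4 was at 0.30. A part of Myc in the levels of Cdk4 was not tested.

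Among the CIP/KIP inhibitors, Cdkn1a, which p53 induces and which binds cyclin-CDK2, was lower on all arrays with ritonavir. Its log2 level was 12.02 with ethanol, 11.96 with tenofovir, 11.75 with ritonavir, 11.35 with ritonavir and DMSO, 11.45 with c9,t11-CLA and 11.30 with t10,c12-CLA. The arrays of the second experiment were the lowest 3, and the difference from ethanol was -0.28 for ritonavir and -0.67 for ritonavir with DMSO. The other probe set of Cdkn1a gave -0.12 and -0.48.

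Cdkn1b, an inhibitor that holds resting cells out of the cycle, was the member whose ritonavir arrays without CLA lay on opposite sides of ethanol, each by more than 0.26. Its log2 level was 10.52 with ethanol, 10.48 with tenofovir, 10.96 with ritonavir, 10.23 with ritonavir and DMSO, 10.10 with c9,t11-CLA and 10.07 with t10,c12-CLA. The first experiment's ritonavir array was the highest of the 6 and the 3 arrays of the second experiment were the lowest. The difference from ethanol was 0.44 for ritonavir and -0.29 for ritonavir with DMSO. Experiment and vehicle differ together between those ritonavir arrays, so their parts cannot be told apart. The other probe set of Cdkn1b differed by only 0.07 and -0.16. Cdkn1c, the third inhibitor of the class, ranged from 5.49 to 5.72, under the detection level, so no difference is given for it.

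Cdkn2b, an INK4 inhibitor known as a target of TGF-beta signals, had a log2 level of 10.59 with ethanol, 10.63 with tenofovir, 11.95 with ritonavir, 11.11 with ritonavir and DMSO, 11.02 with c9,t11-CLA and 11 with t10,c12-CLA. The first experiment's ritonavir array stood above all others, and the 3 arrays of the second experiment lay close together between it and the arrays without ritonavir. The difference from ethanol was 1.36 for ritonavir, the 268th highest, and 0.53 for ritonavir with DMSO. When both ritonavir arrays without CLA were averaged, it was 0.94, short of 2-fold. The isomers differed little from DMSO, by -0.09 for c9,t11-CLA and -0.11 for t10,c12-CLA. Cdkn2a, the INK4 gene beside Cdkn2b on the chromosome, was 0.90 higher with ritonavir than with ethanol and 0.46 higher with ritonavir and DMSO.

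Cdkn2c, the INK4 inhibitor tied to fat cell maturation, varied most of the members, over 3.05 log2 units. Its log2 level was 12.50 with ethanol, 12.62 with tenofovir, 9.56 with ritonavir, 11.35 with ritonavir and DMSO, 11.68 with c9,t11-CLA and 10.25 with t10,c12-CLA. The ritonavir array was the lowest and the t10,c12-CLA array the next, and all 4 arrays with ritonavir lay below both without. The difference from ethanol was -2.94 for ritonavir, the 92nd lowest of the detected genes, and -1.15 for ritonavir with DMSO, a 2.22-fold lower level. Against DMSO, t10,c12-CLA differed by -1.10, the 100th lowest, and c9,t11-CLA by 0.33. A check by another probe set was not possible, since Cdkn2c had only 1.

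The mean of the adipocyte markers had the same order of arrays as Cdkn2c, though single markers did not all have it. Fabp4 and Lpl were highest with ritonavir and DMSO, but each by only 0.03 against ethanol, inside the scale of 0.26. Their levels there, 14.92 and 14.95, were near the highest value on any array, 15.01. Of the 10 detected, 8 were at least 2-fold lower with ritonavir than with ethanol (6.39% of all genes), 5 were lower with ritonavir and DMSO (2.99%), and 6 were lower with t10,c12-CLA than with DMSO (1.05%). Adipoq, which encodes a hormone of fat cells, differed from ethanol by -4.61 with ritonavir and by -0.16 with ritonavir and DMSO. The part of the marker shift in the results for Cdkn2c and Ccnd1 was not tested. In bulk RNA, fewer cells of a type and less RNA per cell cannot be told apart.

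The upstream windows of the INK4 genes are shown because their genes differed from ethanol in opposite directions with ritonavir. Both lie on chromosome 4, and all 3 windows are on the - strand of GRCm38.p6, printed 5′ to 3′. The window of Cdkn2b (chr4:89311033-89311282) has the cAMP response element TGACGTCA in capitals, a motif that 1.55% of all windows hold. Cdkn2c has 2 starts. Capitals mark the GC box GGGCGG, read by SP1 and present in 32.7% of all windows: the upstream start (chr4:109666757-109667006) has 3, and the downstream start (chr4:109665373-109665622) has 0.
Cdkn2b: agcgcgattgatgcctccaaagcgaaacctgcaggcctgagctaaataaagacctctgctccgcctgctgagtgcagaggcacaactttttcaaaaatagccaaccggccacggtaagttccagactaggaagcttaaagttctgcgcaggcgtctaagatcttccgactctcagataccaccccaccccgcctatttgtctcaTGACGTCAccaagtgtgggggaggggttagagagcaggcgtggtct
Cdkn2c, upstream start: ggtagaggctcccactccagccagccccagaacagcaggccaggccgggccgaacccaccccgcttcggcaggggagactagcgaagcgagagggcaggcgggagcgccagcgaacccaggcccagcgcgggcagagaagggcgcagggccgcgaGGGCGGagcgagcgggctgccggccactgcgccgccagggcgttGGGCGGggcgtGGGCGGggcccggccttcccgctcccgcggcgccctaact
Cdkn2c, downstream start: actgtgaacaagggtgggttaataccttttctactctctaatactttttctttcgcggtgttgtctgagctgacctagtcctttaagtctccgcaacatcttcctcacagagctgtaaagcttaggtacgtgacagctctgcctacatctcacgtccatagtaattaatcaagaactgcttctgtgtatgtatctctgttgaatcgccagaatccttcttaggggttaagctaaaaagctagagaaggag
The base composition of those Cdkn2c windows differs, at 77.2% and 42.8% GC, against a median of 52.4% over all windows. Over the 10 windows of members, 9 exceeded that median. The AP-1 motif TGANTCA, held by 6.75% of all windows, and the C/EBP motif TTGCNNAAT, held by 2.11%, were in 0 of the 10, and the E2F motif TTTNNCGC, held by 4.28%, was in 1, that of Cdk6. The array does not tell which start was used.

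Counts of members past a set fold were read against all detected genes. Between ritonavir and ethanol, 2 of the 9 detected members, Ccnd1 and Cdkn2b, were at least 2-fold higher, where 4.56% of all detected genes were, and 1, Cdkn2c, was at least 2-fold lower, where 6.39% were. At 1.5-fold, Cdk4 and Ccnd3 joined them, 5 of 9 in all, against 24.8% of all genes in either direction. The median difference of the 9 members was -0.01, that of all genes 0.00. Between ritonavir with DMSO and ethanol, 0 members were at least 2-fold higher (1.52% of all genes) and 1, Cdkn2c, lower (2.99%). At 1.5-fold there were 4 members, Ccnd1, Ccnd3, Cdkn1a and Cdkn2c, against 14.1% of all genes. Both comparisons share the ethanol array, and this second one crosses the experiments and the vehicles: no array without ritonavir from the second experiment was analysed here.

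The ritonavir arrays of the 2 experiments differed from each other at some members. With DMSO, Cdkn2c was at least 2-fold above the first experiment's ritonavir array, as 2.83% of all genes were, by 1.79, and Ccnd1 was 2.62-fold below it, where 2.07% of all genes were at least 2-fold below. The difference was -0.84 for Cdkn2b and -0.73 for Cdkn1b. In each of Ccnd1, Cdkn2b and Cdkn2c the array with DMSO lay nearer to ethanol.

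Tenofovir left the members near ethanol. None of the 9 was at least 2-fold apart, where 0.0% of all genes were, and the member differences ran from -0.11 for Ccnd1 to 0.25 for Cdk6. All of them were within 0.26, but this scale was taken from the same pair of arrays and holds 95% of genes by definition, so it is no separate check. Cdk6 had the 371st highest difference of 12386 genes, with 3.0% at least as far up.

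All 4 arrays with ritonavir lay above both without it for 3 members, Ccnd1, Cdk4 and Cdkn2b, and below both for 3, Ccnd3, Cdkn1a and Cdkn2c. The gap between the nearest arrays was widest for Cdkn2c, at 0.82 log2 units, then Ccnd1 at 0.66 and Cdkn2b at 0.37. Of all detected genes, 28.6% lay above and 22.6% below in this way, so the members' counts are near the background and are not a result about them. The other 4 members overlapped.

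**Figure D2:**
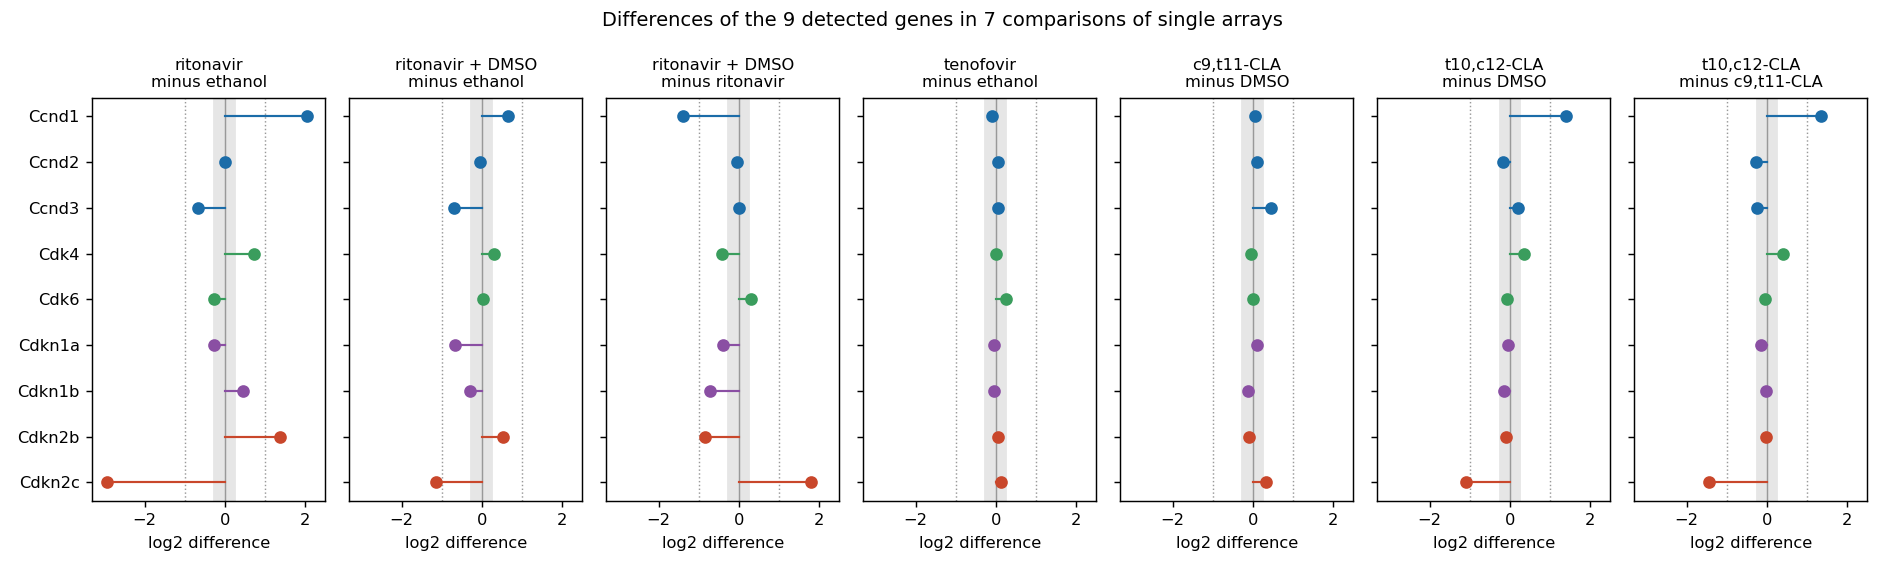
Log2 difference between 2 single arrays (x axis) for the 9 detected genes (y axis) in 7 comparisons; the grey band is the range within 0.26 of 0 that holds 95% of all genes between tenofovir and ethanol, and dotted lines mark 2-fold. Ccnd1 (2.05) and Cdkn2c (-2.94) are farthest from 0 for ritonavir minus ethanol and, at 1.40 and -1.10, again for t10,c12-CLA minus DMSO, while all 9 points of tenofovir minus ethanol lie inside the band.

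The CLA isomers were compared at the same dose and time, each against DMSO and against each other, all with ritonavir. With t10,c12-CLA, 1 member, Ccnd1, was at least 2-fold above DMSO, where 0.783% of all genes were, and 1, Cdkn2c, at least 2-fold below, where 1.05% were. At 1.5-fold these were still the only 2 of 9, against 7.07% of all genes. With c9,t11-CLA, 0 members were 2-fold apart from DMSO, where 0.00807% of all genes, 1 gene, was. Between the isomers, Ccnd1 was 2.55-fold higher with t10,c12-CLA, where 0.953% of all genes passed 2-fold upward, and Cdkn2c 2.69-fold lower, where 1.53% passed it downward. For Cdkn2b, Cdkn1b and Cdk6 the isomers lay within 0.06 of each other. With 1 array per isomer no interval of the difference can be given, and nearness on these arrays does not show that the isomers act alike.

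**Figure D3:**
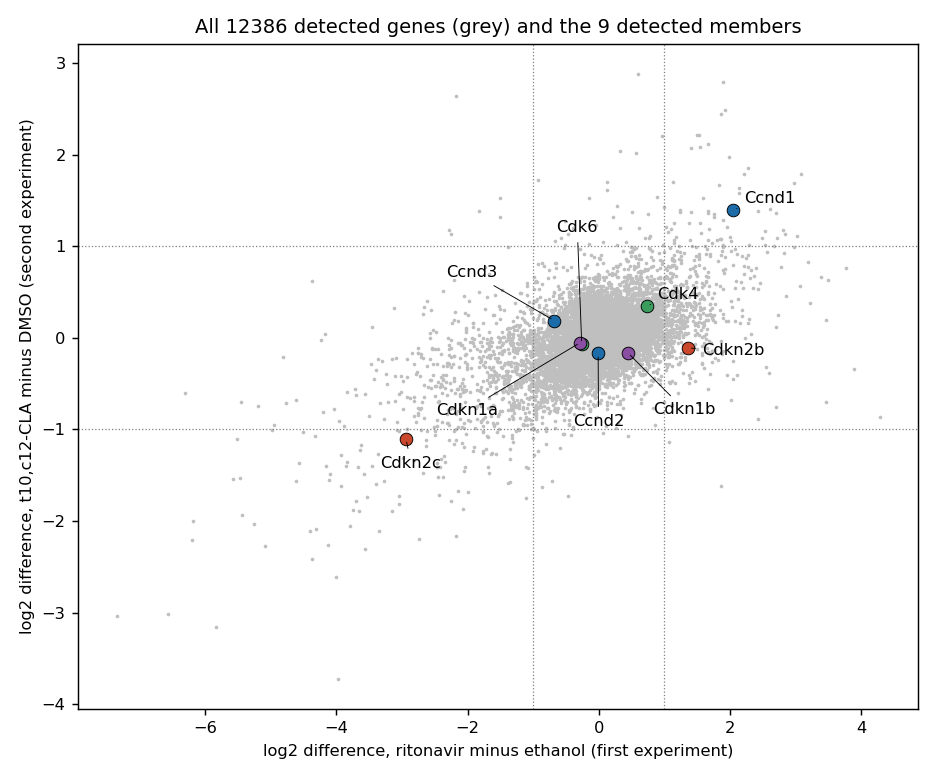
Log2 difference of ritonavir minus ethanol (x axis, first experiment) against t10,c12-CLA minus DMSO (y axis, second experiment, all with ritonavir) for 12386 detected genes (grey points) and the 9 detected members (coloured points); dotted lines mark 2-fold, and the comparisons share no array. Ccnd1 lies past 2-fold upward in both and Cdkn2c past 2-fold downward in both, while Cdkn2b is past it only on the x axis.

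Genes whose levels followed the same arrays were sought for the 3 members with a range of at least 1 log2 unit, among 1894 other detected genes of that range. The measure was Pearson's r over the 6 arrays, given as a description, since the 6 points fall into few separate levels and share their experiments. The genes most like Ccnd1 were Myo1e, with an r of 0.999, Ctxn1, Ptbp2, Aldh1a1 and Fgf7, with 0.994. Those most like Cdkn2b were Zfp930, with 0.994, Prdm15, Ccnt2, Adamts5 and Lrrc27, with 0.991. Those most like Cdkn2c were Rbm47, with 0.999, Cers4, Ifngr1, Mcm9 and Etfdh, with 0.998. An r over 0.95 was common: 130 genes reached it with Ccnd1, 90 with Cdkn2b and 413 with Cdkn2c. Some of these genes were partly under the detection level: Aldh1a1 on all arrays but that of t10,c12-CLA, Rbm47 on the ritonavir and t10,c12-CLA arrays and Mcm9 with ritonavir.

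The genes around the D-type cyclins were described in 11 lists, by the count of detected genes at least 2-fold apart. For ritonavir minus ethanol these counts stand against the 4.56% of all genes higher and 6.39% lower, and the medians against 0.00 for all genes. For ritonavir with DMSO minus ethanol the shares are 1.52% higher and 2.99% lower, and for t10,c12-CLA minus DMSO 0.783% higher and 1.05% lower, with a median of 0.02 for all genes in each. Of the 17 RB proteins, E2F factors and their partners, 4 were lower and 0 higher, and the median was -0.26. The lowest were E2f7, a repressor of the E2F class, at -2.52, Lin9, a subunit of the DREAM and MuvB complexes, at -1.68, and E2f8 at -1.54. With ritonavir all 3 fell short of the detection level, Lin9 on 4 arrays in all, so their values there are not above background and these sizes have no order. With such values set to the level, Lin9 was no longer 2-fold apart and 3 of the 17 were lower. Rb1, which the D cyclin kinases phosphorylate, was at -0.92 with ritonavir, at 0.19 with ritonavir and DMSO, and at -0.77 for t10,c12-CLA against DMSO.

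Most of the later cyclins and their kinases and most replication genes that E2F drives were lower with ritonavir than with ethanol, 11 of 14 and 16 of 17. Of 14 later cyclins and kinases, 5 were at least 2-fold below ethanol and 0 above, with a median of -0.65, and 4 were with values under the detection level raised to it. Ccnb2 and Ccna2, mitotic and S-phase cyclins, were at -2.58 and -2.28, Ccne2, which activates CDK2, was at -2.05, and Cdk1, the mitotic kinase, at -1.47. Of 17 replication genes, 7 were lower and 0 higher, and their median was -0.62. Tk1, thymidine kinase, was at -2.53, Cdc6, which loads the replicative helicase, at -1.58 and Rrm2, a subunit of ribonucleotide reductase, at -1.39. So on the ritonavir array Ccnd1 and Cdk4 were high while Ccna2, Ccnb2 and Ccne2 were low.

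With ritonavir and DMSO the direction was the same and the counts smaller: 2 of 14 later cyclins and kinases and 3 of 17 replication genes were at least 2-fold lower than with ethanol, where 2.99% of all genes were, with medians of -0.48 and -0.64. With t10,c12-CLA, 0 of either list was 2-fold apart from DMSO, and the medians were -0.08 and 0.04. With c9,t11-CLA the replication genes were all on 1 side of DMSO: 17 of 17 were above it, with a median of 0.38, against a median of 0.01 for all genes. Proliferation markers gave the same picture: their mean log2 level over 5 detected genes was 10.51 with ethanol, 10.47 with tenofovir, 8.37 with ritonavir, 9.32 with ritonavir and DMSO, 9.81 with c9,t11-CLA and 9.27 with t10,c12-CLA. All 5 were at least 2-fold lower with ritonavir than with ethanol. Cdk1 is in both the marker list and the kinase list.

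The genes that turn over D cyclins and CIP/KIP inhibitors differed little. Of 20, 0 were at least 2-fold higher and 1 was lower with ritonavir than with ethanol, with a median of -0.09. That 1 was Cdc20, an activator of the anaphase-promoting complex, at -2.54. Of 13 other CDK inhibitors and partners, 3 were lower and 0 higher, and the median was -0.15: Cables1, a CDK-binding adaptor, at -2.33, Cdkn2d, the fourth INK4 gene, at -1.23, and Cdkn3, a CDK phosphatase, at -1.15. Cdkn3 did not reach the detection level with ritonavir, and with such values raised to the level 2 of the 13 were lower. Cdkn2d thus lay low with Cdkn2c while Cdkn2a lay high with Cdkn2b. Against DMSO, t10,c12-CLA gave -0.75 for Cdkn2d and 0.01 for Cdkn2a.

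Targets of p53, the class that holds Cdkn1a, lay on both sides of ethanol. Of 21, 2 were at least 2-fold higher and 3 lower with ritonavir than with ethanol, with a median of 0.25. Plk2, a stress-induced kinase, was at 2.73 and Gadd45a, a growth arrest gene, at 1.81, whereas Ckap2, a spindle protein, was at -1.92 and Btg2, an antiproliferative gene, at -1.34. With ritonavir and DMSO, 2 of 21 were at least 2-fold higher than with ethanol (1.52% of all genes) and 2 lower (2.99%). Plk2 was at 1.2 and Gadd45a at 1.43, while Btg2 was at -1.95 and Ckap2 at -1.51.

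Genes of early growth factor signals, which lie upstream of Ccnd1, were mostly lower on the ritonavir arrays. Of 22, 1 was at least 2-fold higher and 8 lower with ritonavir than with ethanol, with a median of -0.42, while 11 were lower and 0 higher with ritonavir and DMSO, where 2.99% of all genes were lower, for a median of -1.0. Between ritonavir and ethanol, Fosl1, an AP-1 factor, was at -4.37, and Spry4 and Dusp6, feedback inhibitors of ERK signals, were at -2.72 and -2.57. Between ritonavir with DMSO and ethanol, these 3 were at -2.66, -1.26 and -1.81. Against DMSO, t10,c12-CLA had 1 of 22 at least 2-fold higher, Dusp1, a MAP kinase phosphatase, at 1.32, and 0 lower, with a median of 0.36, or 0.21 with values under the detection level raised to it.

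Of 16 YAP and TEAD targets and factors, 3 were at least 2-fold higher and 0 lower with ritonavir than with ethanol, with a median of 0.22, and 3 were higher and 0 lower with t10,c12-CLA than with DMSO, where 0.783% of all genes were higher, with a median of 0.29. Ccn1, a matricellular protein, had the same high arrays as Ccnd1, at 1.49 for ritonavir, -0.79 for ritonavir with DMSO and 2.22 for t10,c12-CLA against DMSO. With ritonavir and DMSO, 1 of the 16 was higher, Ajuba, a LIM protein, at 1.03. Of 17 genes of TGF-beta and SMAD signals, 2 were higher and 2 lower with ritonavir, and the median was 0.11. Id2 and Id3, inhibitors of helix-loop-helix factors, were at 2.46 and 2.19, and Bhlhe40, a repressor, and Pmepa1, a feedback inhibitor of SMAD signals, at -1.68 and -1.50. Against DMSO, t10,c12-CLA had 2 of 17 higher, Ccn2 at 1.61 and Pmepa1 at 1.53, with a median of 0.35. Ccn2 is in both lists and was above the detection level on the t10,c12-CLA array alone, so it could be counted only through that array. With such values set to the level, Ccn2 was no longer 2-fold apart, which left 2 of 16 and 1 of 17.

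Of 8 detected Wnt/beta-catenin genes, 1 was at least 2-fold higher with ritonavir than with ethanol, Ccn4 at 1.88, and 2 were lower, Apcdd1, an inhibitor of Wnt signals, at -1.68 and Lef1, a transcription factor of the pathway, at -1.20, with a median of -0.14. Of 17 FOXO factors and targets, 1 was higher and 4 lower, with a median of -0.56: Klf15, a transcription factor of mature fat cells, was at -4.16, Irs2, an adaptor of the insulin receptor, at -2.29, and Pik3ip1, an inhibitor of PI3 kinase, at 1.89. Klf15 was also low for t10,c12-CLA against DMSO, at -1.40. Between ritonavir with DMSO and ethanol, 0 of the 8 Wnt/beta-catenin genes were at least 2-fold higher and 1 was lower, with a median of 0.08. Ccn4 was at 0.24 there, Apcdd1 at 0.19 and Lef1 at -1.32. Of the 17 FOXO factors and targets, 1 was higher and 1 lower in that comparison, with a median of -0.47.

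**Figure D4:**
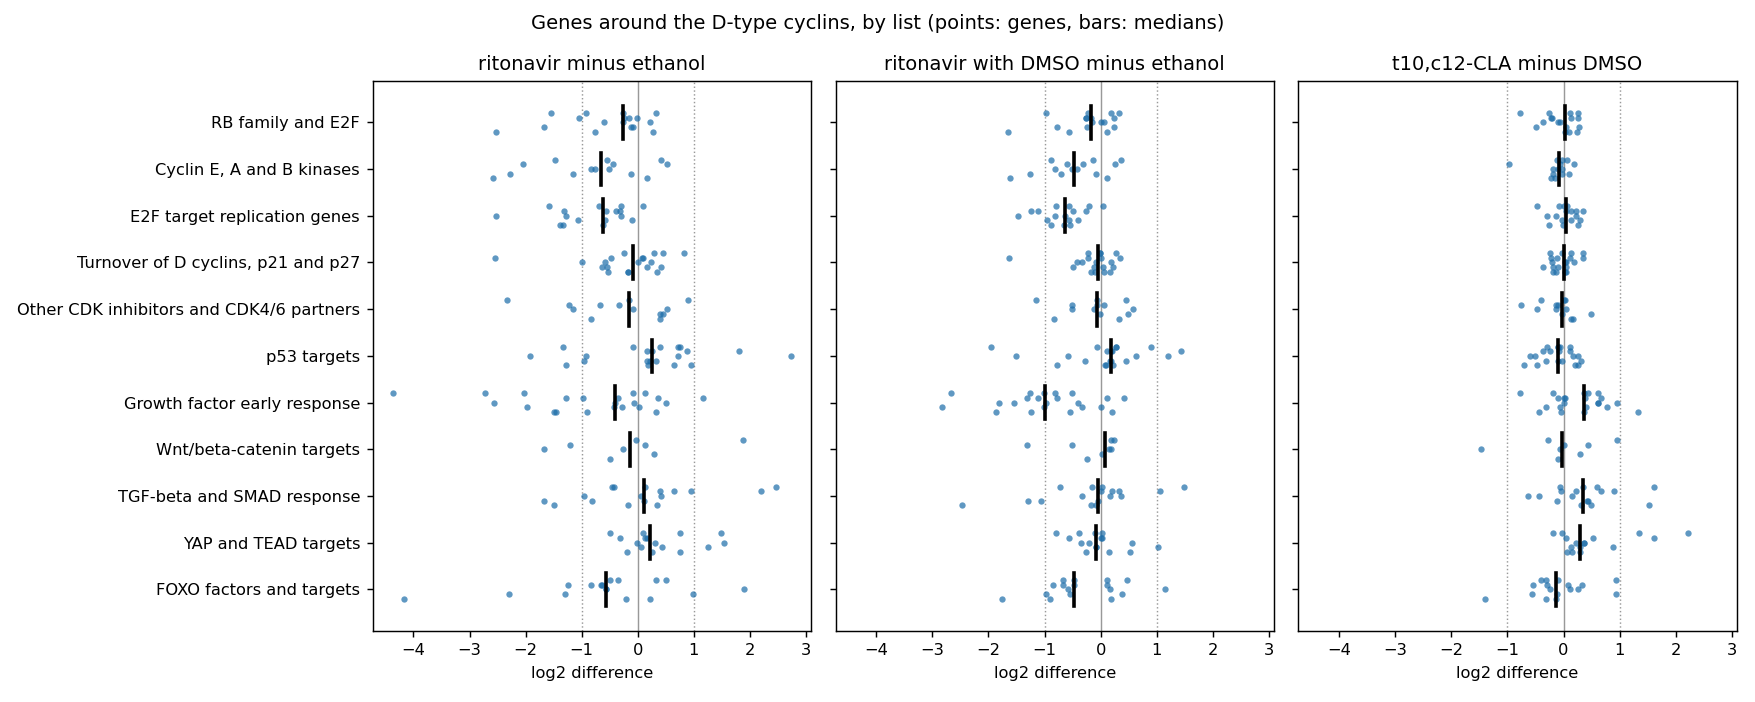
Log2 difference (x axis) of each detected gene in the 11 lists (y axis) for ritonavir minus ethanol, ritonavir with DMSO minus ethanol and t10,c12-CLA minus DMSO; points are genes, black bars are list medians and dotted lines mark 2-fold. The replication genes sit to the left with ritonavir (median -0.62) and ritonavir with DMSO (median -0.64) and around 0 with t10,c12-CLA (median 0.04).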

How the data were processed

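RNA of 6 groups, pooled from 4 replicate experiments each, was, per the labels' protocols, hybridised to Affymetrix arrays, 1 for each group. The authors deposited log2 values of 45101 probe sets. The submitters' processing notes name Affymetrix Expression Console and RMA, but the sources used here do not give their version and settings. RMA equalises array distributions, so a shift of most genes one way would be hidden.

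Probe sets were named through the platform annotation and RefSeq gene identifiers: 34958 had 1 symbol, 932 several and 9211 none listed. The probe set with the highest mean stood for its gene. A gene was detected when 1 array exceeded 6.55, the table's median, which 12386 of 18194 genes did. Differences are between single arrays, with no test; the number of arrays limits the precision. Counting was checked on simulated data. Motifs were counted in windows of 250 bases from RefSeq (GRCm38.p6).

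The members and lists were chosen with earlier results of these data known. Named genes are the members, up to 3 genes at each end of each list in 3 comparisons, and the 5 genes most like each member with a range of at least 1. Markers and neighbouring genes named outside that rule were chosen after their values were seen. Analyses used Python 3.11.15, pandas 2.3.3 and statsmodels 0.14.6. Alternatives were other probe sets, detection levels, folds, normalization and the other ritonavir array.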

Additional observations from a re-analysis of the deposited data

Results flagged for a closer look

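Cdkn1b was flagged because its 2 ritonavir arrays without CLA lay on opposite sides of ethanol, with differences of 0.44 for ritonavir and -0.29 with DMSO. Each was past the 0.26 that holds 95% of the differences between tenofovir and ethanol, 2 arrays of the first experiment. Neither size was rare: 18.1% of detected genes were at least as far up with ritonavir, and 18.4% at least as far down with ritonavir and DMSO. The difference between 0.44 and -0.29 was not tested, since each group had 1 array. The other probe set of the gene gave 0.07 and -0.16, and the mean of both probe sets gave 0.26 and -0.23. The arrays differ in experiment and in vehicle, which cannot be told apart.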

How the results depend on the processing

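Under other probe sets, detection levels, normalization, trend removal and the mean of both ritonavir arrays without CLA, 491 of 548 member values stayed within 0.113, the robust SD of tenofovir minus ethanol, of the value reported, and 57 moved further. The 10 member differences of at least 2-fold had 81 values under these alternatives. Of these, 80 were still at least 2-fold and 0 changed sign. The exception was Cdkn2b for ritonavir minus ethanol, at 0.94 when both ritonavir arrays without CLA were averaged. Both totals include settings that could not move a member value. Dropping the detection filter, making it stricter and raising values to the detection level each gave 63 values, with 0 moved. Every value used for a detected member already lay above that level. With both ritonavir arrays without CLA averaged, 7 values moved and 2 stayed. Trend removal and repeated normalization, which could move values, each moved 0 and left 63. Counts depended on the threshold. At 1.5-fold, members numbered 5 for ritonavir minus ethanol, 4 for ritonavir with DMSO minus ethanol and 4 for ritonavir with DMSO minus ritonavir, and all genes 3076, 1752 and 1810 in those comparisons, 12 for tenofovir, 21 for c9,t11-CLA, 876 between t10,c12-CLA and DMSO and 1002 for the isomer pair. At 3-fold, members numbered 2 for ritonavir minus ethanol, 0 for ritonavir with DMSO minus ethanol, 1 for ritonavir with DMSO minus ritonavir, 0 between t10,c12-CLA and DMSO and 0 for the isomer pair, and all genes 585 for ritonavir minus ethanol, 171 for ritonavir with DMSO minus ethanol, 188 for ritonavir with DMSO minus ritonavir, 0 for c9,t11-CLA, 61 between t10,c12-CLA and DMSO and 76 for the isomer pair. Without the detection level, 1 gene was 2-fold apart for tenofovir and 2 for c9,t11-CLA, and with both ritonavir arrays averaged 858 genes were for ritonavir. Raising list values under the detection level to it, an alternative chosen after seeing the data, took Lin9, Cdc25c and Cdkn3 (ritonavir minus ethanol) and Ccn2 (t10,c12-CLA minus DMSO) out of the list counts. No paired analysis was possible because each group is 1 array and the labels carry no replicate numbers. Array number and signal near the detection level limit every value: Cdkn1c could not be described, Cdkn2b and Cdkn2c rest on 1 probe set each, and Ccnd3 on 1 of 3.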

Other observations

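The nearest neighbours of the members on the chromosomes were looked up after the members' values were seen. Of 19 neighbours, 15 were detected, and 1 of these was at least 2-fold apart between ritonavir and ethanol. The background shares for that pair of arrays were 4.56% upward and 6.39% downward, so 1 of 15 does not stand out. The neighbour past 2-fold was 9630013D21Rik, a transcript next to Cdkn2c. Its log2 level was 7.09 with ethanol, 6.85 with tenofovir, 4.46 with ritonavir, 5.86 with ritonavir and DMSO, 5.86 with c9,t11-CLA and 4.68 with t10,c12-CLA. Its 4 arrays with ritonavir are under the detection level, and the arrays without it are just above. Faf1, the neighbour of Cdkn2c on the other side, was at 11.19 with ethanol and 11.07 with ritonavir. Cdkn2a, next to Cdkn2b, was at 12.03 with ethanol, 12.14 with tenofovir, 12.93 with ritonavir, 12.49 with ritonavir and DMSO, 12.43 with c9,t11-CLA and 12.51 with t10,c12-CLA.

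Among the markers of other cell types, the macrophage marker Cd68, a lysosomal protein, was at 6.87 with ethanol, 6.75 with tenofovir, 8.71 with ritonavir, 8.43 with ritonavir and DMSO, 8.11 with c9,t11-CLA and 10.10 with t10,c12-CLA. It was high wherever ritonavir was present and highest with t10,c12-CLA. The other detected macrophage markers, Csf1r and Lyz2, differed from ethanol by -0.19 and -0.26 with ritonavir.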
